A study of Rattus norvegicus with 50 samples.

Results

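Among the genes measured in the medial prefrontal cortex of Wistar rats, 91 fell over each of 3 successive intervals, from postnatal day 8 to 14, 14 to 21 and 21 to 70. They were chosen from 29516 Ensembl gene identifiers, of which 13213 had a mean of at least 1 FPKM (a fragment count divided by transcript length and by the mapped reads of that library). Libraries were scaled by their median ratio to the geometric mean of each row, and values were taken as log2(FPKM + 0.5). A member had to fall, in the mean of the 10 libraries of a day with both genotypes pooled, by at least 0.5 from day 8 to 14, by at least 0.5 from day 14 to 21 and by at least 0.3 from day 21 to 70. The rule also leaves out 4 identifiers by name, and 0 of these met the steps. Because measured values chose the members, the falls over these steps are given as a description. On this scale the change of low genes is understated.

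The tissue came from wild-type rats and from rats lacking the serotonin transporter, the membrane protein that returns released serotonin to the neuron, at postnatal days 8, 14, 21, 35 and 70. Total RNA was depleted of ribosomal RNA and sequenced. Each genotype and age had 5 libraries, 50 in all. The labels name the knockout by the transporter alone and give neither its allele nor the sex of the animals. The labels do not say that each library is a separate rat, so p-values describe the spread between libraries, which may be technical in part.

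In the rodent cortex, neurons are born before birth, and the first weeks after birth are a time of axon and dendrite growth, synapse formation and the production of glia. Transcripts of growing axons, immature neurons and dividing cells are known to decline as this period ends, while those of mature synapses and myelin increase. The deposited tables list identifiers without symbols, and the reference tables used here list no Ensembl rat identifiers, so which members belong to these classes was not analysed here. The labelled tissue was not checked against marker genes for the same reason. In bulk tissue, fewer cells of a type and less RNA per cell cannot be told apart.

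The files do not give the read depth of each library. What 1 read was worth could be compared between libraries, and by this measure depth ran from 0.397 to 1.42 times that of the median library. Total FPKM ran from 330440 to 2141919. Against the other libraries of their group, 6 libraries had a mean Pearson correlation across genes of 0.916 to 0.939, under the 0.949 to 0.975 of the other libraries. They were wild-type 20-2 and 21-3 of day 14 and 16-2 of day 21, and knockout 30-5 of day 8, 17-1 of day 21 and 7-3 of day 35, named by the numbers in their titles. Without these 6 libraries, which were singled out from the data, the same rule gave 103 genes, 82 of them among the 91.

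Of the rows with a mean of at least 1 FPKM, 1264 met the first step, 571 the second and 1269 the third, and 276 met the first and second. A fall of at least 1.3 log2 units from day 8 to 70, the sum of the 3 steps, was seen in 474 rows, so the members made up 19.2% of the genes that fell this far. Of the others, 141 missed only the third step, 95 only the second and 62 only the first. The margin was thin at the edge. The 3 members nearest to a threshold lay at -0.0020, -0.0042 and -0.0097 log2 units from it, and the 3 nearest rows outside at 0.0018, 0.0028 and 0.0039.

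The members ranged widely in level. Their mean over all libraries ran from 1.15 to 605 FPKM with a median of 8.14, and 44 of the 91 had a mean of at least 10 FPKM. At day 8 the median member stood at 19.8 FPKM, and 17 members had at least 100 FPKM. On days 14, 21, 35 and 70 the median member stood at 9.63, 6.12, 4.20 and 3.72 FPKM in turn, and by the last of these 18 members had a mean under 1 FPKM. The summed FPKM of the 91 members was 8972 in the median library of day 8 (lowest 7340, highest 9682, n = 10) and 1461 in the median library of day 70 (1360 to 1643). The 10 most abundant members held 69.4% of the members' summed mean at day 8 and 71.5% at day 70.

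From day 8 to 70 the median member changed by a log2 value of -2.26, with a range from -4.82 to -1.43. In linear terms the mean FPKM of day 8 was 2.79 to 48.1 times that of day 70, with a median of 5.96. It was more than 4 times as high in 72 members and more than 10 times as high in 21. The most abundant member, chosen for its level, had means of 1613, 804, 283, 182 and 141 FPKM in order of age.

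On the log2(FPKM + 0.5) scale the largest fall belonged to ENSRNOG00000005797. The pseudocount sets this order: by the ratio of mean FPKM, 1 member of lower level ranked above it, at 48.1 against 44.6. Its lowest, median and highest values over the 10 libraries of a day were 29.7, 37.5 and 42.5 FPKM on day 8. They were 8.48, 14.2 and 19.8 FPKM on day 14, then 1.32, 1.96 and 3.87 on day 21. On days 35 and 70 they were 0.884, 1.05 and 1.98 FPKM and 0.464, 0.866 and 1.23 FPKM. Libraries of days 8, 14 and 21 did not overlap, while those of days 21, 35 and 70 overlapped with their neighbours in age. In knockout rats its mean was 36.4 ± 4.83 FPKM at day 8 and 0.722 ± 0.175 at day 70, where wild-type means were 37.0 ± 4.69 and 0.924 ± 0.191 (SD over 5 libraries).

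Next on the log2(FPKM + 0.5) scale was ENSRNOG00000018992, a more abundant gene whose ratio of mean FPKM, 28.9, ranked 4 among the members. Its lowest, median and highest values were 158, 192 and 307 FPKM on day 8. They were 45.8, 77.1 and 96.8 FPKM on day 14, then 7.41, 12.6 and 13.1 on day 21. On days 35 and 70 they were 4.03, 7.87 and 11.3 FPKM and 4.86, 7.59 and 7.94 FPKM. Here too the libraries of days 8, 14 and 21 were separate, and the range of day 70 lay within that of day 35. The log2 change from day 8 to 70 was -4.82 for ENSRNOG00000005797 and -4.75 for ENSRNOG00000018992. With a pseudocount of 1 the order turned, at -4.37 and -4.66.

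**Figure D1:**
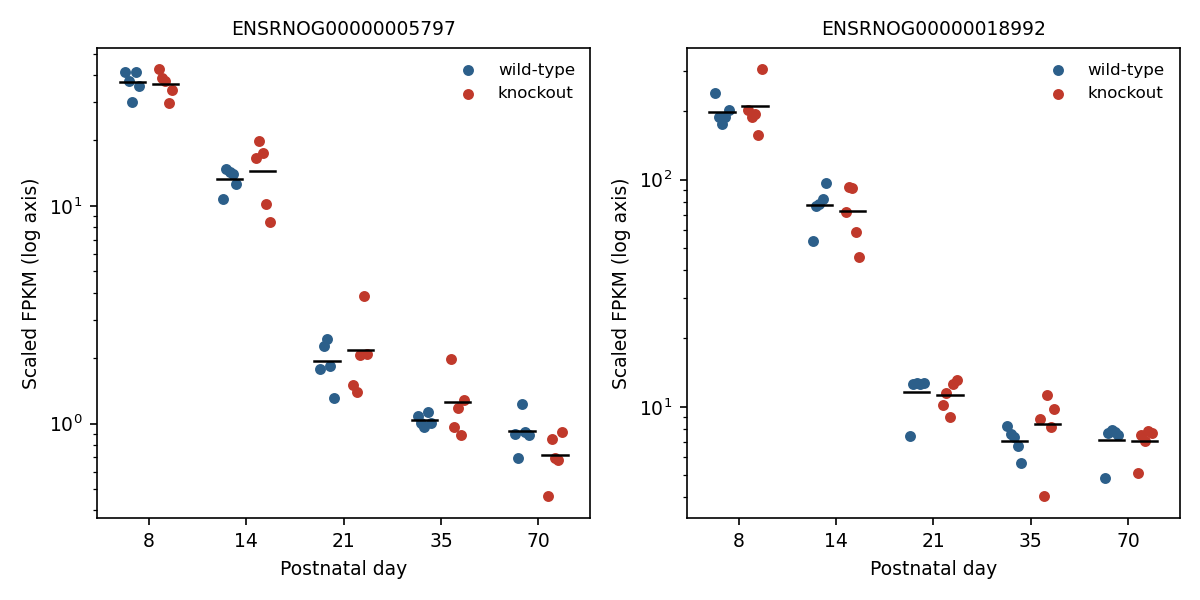
Scaled FPKM on a log axis against postnatal day for the members with the largest falls in log2(FPKM + 0.5), 1 point per library and a black bar at the mean of 5 libraries, with wild-type in blue and knockout in red. In both genes the libraries of day 8 lie above all those of day 14, and these above all those of day 21, in either genotype.

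The pace of the falls was uneven. The rule sets this in part, since it asked for less from day 21 to 70 than in either earlier step. The median change per day was -0.14 log2 units from day 8 to 14, -0.12 from day 14 to 21, -0.025 from day 21 to 35 and -0.0046 from day 35 to 70. The early steps were of like size, with a larger first step in 42 of the 91 members and a larger second step in the others. By day 14 the median member had covered 37.3% of its log2 fall to day 70, and by day 21 it had covered 78.5%. The minimum steps of 0.5, 0.5 and 0.3 log2 units bear on these shares and on the like size of the early steps. Both are given as a description. At least 50% of the fall had been made by day 14 in 12 members.

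**Figure D2:**
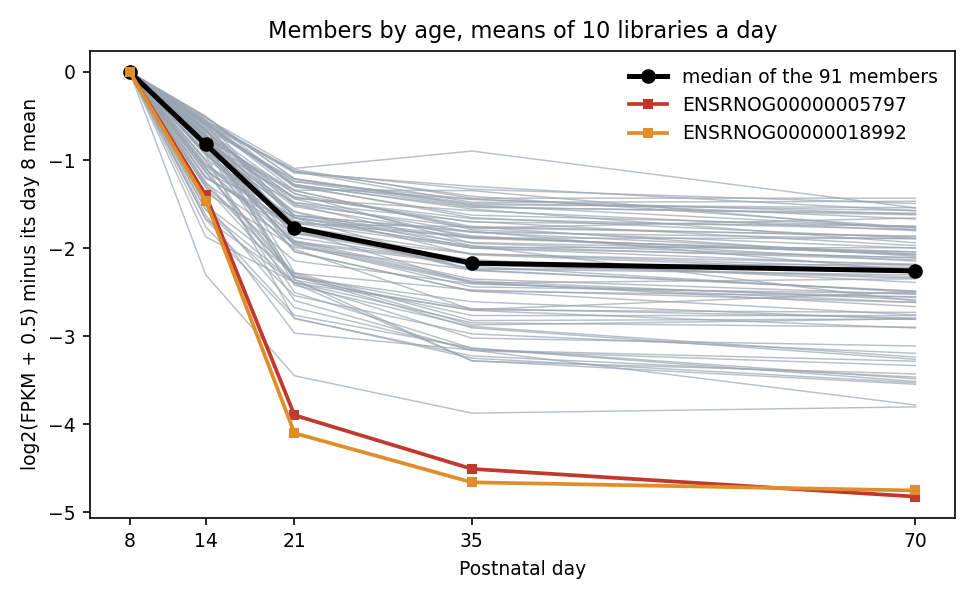
Mean log2(FPKM + 0.5) over the 10 libraries of a day, relative to day 8, against postnatal day, with 1 grey line per member, the median of the 91 in black and the genes of largest fall on this scale in colour. The median line drops to day 21 and then flattens, ending at -2.26.

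Day 35 was not used by the rule, although the changes into and out of it share days 21 and 70 with the rule and are given with no test. By day 35 the median member had covered 93.1% of its fall, and 65 of the 91 had covered at least 90%. The range over members was 58.2% to 108%. In 90 of the 91 members the day 35 mean lay below the day 21 mean, and in 8 it lay below the day 70 mean, so these 8 reached their lowest mean at day 35. The change from day 21 to 35 exceeded that from day 35 to 70 in 76 members, with medians of -0.35 and -0.16 log2 units. Libraries of the later ages seldom separated. All 10 libraries of day 21 lay above all 10 of day 35 in 9 members (0.724% of all 14779 rows tested), and all 10 of day 35 above all 10 of day 70 in 1 member (0.183% of all rows). For the steps used by the rule, the libraries were separate in 62 members from day 8 to 14 (4.88% of all rows), in 59 from day 14 to 21 (3.02%) and in 89 from day 8 to 70 (14.3%).

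**Figure D3:**
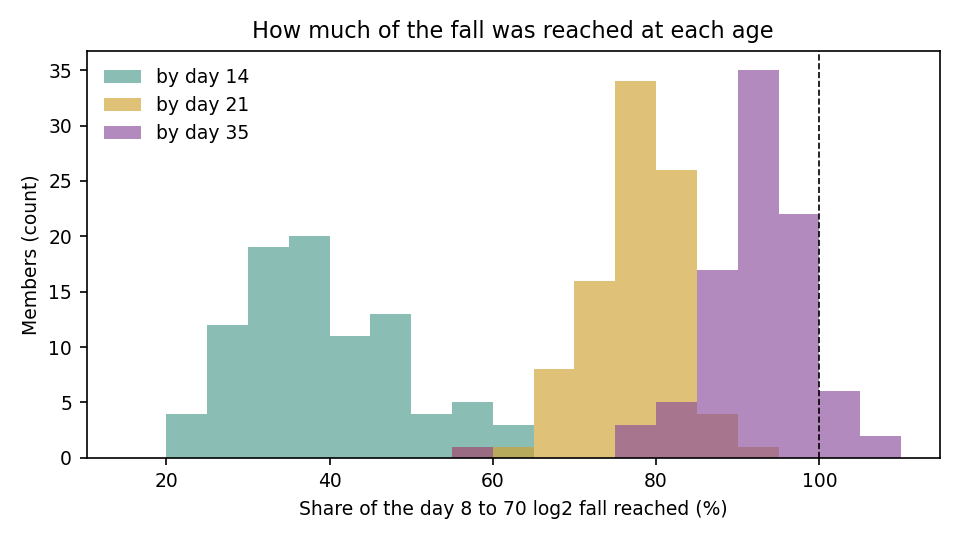
Number of members, in bins of 5 percentage points, by the share of their log2 fall from day 8 to 70 that was reached by day 14, 21 and 35, with the day 70 level at the dashed line of 100%. The medians are 37.3%, 78.5% and 93.1%, and 8 members lie past 100% by day 35. The minimum steps of the rule in part set the shares by days 14 and 21.

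Whether the course recurs in libraries that did not choose the genes was asked by applying the rule in 1 genotype and fitting the other alone. The rule was set with earlier results of both genotypes known, and the scaling used all 50 libraries. The lists are therefore not fully independent of the libraries in which they were tested. The shares of all genes given beside the counts are not matched for the size of the fall. In wild-type libraries the rule chose 94 genes. All 94 passed the filter of a mean of at least 0.5 FPKM in knockout rats, where 84 of them fell from day 8 to 14 by limma at an adjusted p under 0.05 (16.4% of all 14833 genes tested), 88 from day 14 to 21 (9.08%) and 55 from day 21 to 70 (5.16%). In knockout rats 53 of the 94, or 56.4%, fell in all 3 intervals, against 0.809% of all genes. By limma 0 were called as rising in any interval. By mean, 91, 93 and 90 of the 94 were lower over the intervals in turn, and the highest changes were 2.49, 0.72 and 0.17 log2 units. The median log2 changes of the 94 in knockout rats were -0.80, -0.97 and -0.49, against -0.85, -0.86 and -0.49 in the wild-type libraries that chose them. The median of all genes lay within 0.0014 log2 units of 0 in each of these intervals, which the scaling largely sets.

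The converse gave a like picture. The rule chose 97 genes in knockout libraries, and in wild-type rats 91 of them fell from day 8 to 14 (15.8% of all 14732 genes tested), 81 from day 14 to 21 (9.61%) and 52 from day 21 to 70 (5.12%). In all 3 intervals 50 fell, or 51.5%, against 0.977% of all genes. This share was 32.0% when the first number of the title, which 1 to 3 libraries of a group share, was a random effect. With 1 library left out it ran from 40.2% to 56.4%. The share of the genes chosen in wild-type rats that fell in all 3 intervals in knockout rats then ran from 41.5% to 63.1%. By mean, 96, 88 and 91 of the 97 were lower in wild-type rats over the intervals in turn. The genes called as rising by limma were 7 that rose from day 14 to 21 in wild-type rats, by 2.28 to 6.06 log2 units. Their wild-type means were 0.156 to 13.8 FPKM at day 14 and 6.64 to 91.5 at day 21, while their knockout means at day 14 were 4.98 to 60.5. None of the 7 is among the 91 members.

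The same fits can be read for day 35. Of the genes chosen in wild-type rats, 19 fell from day 21 to 35 in knockout rats (2.15% of all genes) and 0 from day 35 to 70 by limma (0.0674% of all genes), where 23 had an unadjusted p under 0.05 and a lower mean (5.12% of all genes). Of those chosen in knockout rats, 22 fell from day 21 to 35 in wild-type rats (1.57%) and 2 from day 35 to 70 (0.183%), where 13 had an unadjusted p under 0.05 and a lower mean (3.68%). The lists from the separate genotypes shared 58 genes, which is 61.7% of the wild-type list and 59.8% of the knockout list. Of the 91 members, 73 were chosen in wild-type and 68 in knockout libraries, 58 in both and 8 in neither.

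The comparison of genotypes within an age was not used by the rule, which pooled them. It is not fully independent of the rule where the spread differs between genotypes. At day 14 the SD of the members' mean was 0.22 log2 units in knockout and 0.021 in wild-type libraries. At day 8, 1 of the 91 members passed by limma at an adjusted p under 0.05 (0.244% of all 14779 genes), and 11 had an unadjusted p under 0.05 (9.32% of all genes), 5 of them higher and 6 lower in knockout rats. The gene that passed was ENSRNOG00000012181. Its knockout libraries of day 8 held 11.2, 19.7, 16.8, 13.9 and 11.8 FPKM, and its wild-type libraries held 9.52, 10.2, 6.72, 9.01 and 12.8. The groups overlapped: knockout libraries 29-4, 29-5 and 30-1 lay above every wild-type library, and the others fell within the wild-type range. The means were 14.7 ± 3.55 FPKM with the knockout and 9.65 ± 2.20 without it (SD, n = 5 each), and by limma the difference was 0.58 ± 0.13 log2 units (SE) at an adjusted p of 0.0324.

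This call depended on single libraries. It was lost without knockout library 29-4, 29-5 or 30-1 and without wild-type library 25-2, 26-1 or 27-2, with limma adjusted p from 0.0749 to 0.248, with the values as deposited (limma adjusted p = 0.185) and with day 8 fitted alone (limma adjusted p = 0.771). At day 14 the knockout mean of ENSRNOG00000012181 was 7.71 ± 0.725 FPKM and the wild-type mean 7.60 ± 0.765, and on day 70 they were 3.04 ± 0.261 and 3.14 ± 0.303 (SD, n = 5 each).

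At the later ages 0 members passed by limma. At day 14, 1 member had an unadjusted p under 0.05 (2.38% of all genes, and 0.00677% at an adjusted p under 0.05). On days 21, 35 and 70 the numbers were 1 (2.95%), 5 (2.55%) and 5 (2.4%), with 0% of all genes passing after adjustment at these ages. The members past the unadjusted threshold had lower fitted values in knockout rats on days 14, 21 and 70, while on day 35 the fitted value was higher in 3 and lower in 2. Averaged over ages 0 members passed (0.0338% of all genes) and 4 had an unadjusted p under 0.05 (5.87%). In the test of whether the genotype difference depends on age 0 passed (0.00677%) and 5 had an unadjusted p under 0.05 (3.18%). In 1 member all 5 knockout libraries of day 21 lay below all 5 wild-type libraries (0.291% of all genes). The reverse, all knockout libraries above, was seen in 0 members on that day (0.345%). On days 8, 14, 35 and 70 there were 0 members with all knockout libraries above, against 0.304%, 0.183%, 0.129% and 0.244% of all genes. There were also 0 with all of them below, against 0.548%, 0.25%, 0.162% and 0.264%.

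Fitted values lay on both sides of 0, with 47 members higher and 44 lower in knockout rats on day 8, and 37 higher and 54 lower on day 70. In order of age the median knockout minus wild-type difference over the 91 was 0.0048, -0.0085, -0.016, 0.011 and -0.022 log2 units. The medians of all genes, which the scaling holds near 0, were -0.0096, 0.0076, 0.0045, -0.0016 and -0.0020. With the values as deposited the medians over the members were -0.11 at day 8 and -0.076 at day 70. The typical standard error of a single member's difference was 0.13. The fall from day 8 to 70 differed between genotypes in 0 members by limma (0.0135% of all genes), with 6 members at an unadjusted p under 0.05 (5.28% of all genes) and a median difference of -0.037 log2 units between the changes. A p that misses the threshold does not show that a gene is alike in both genotypes.

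**Figure D4:**
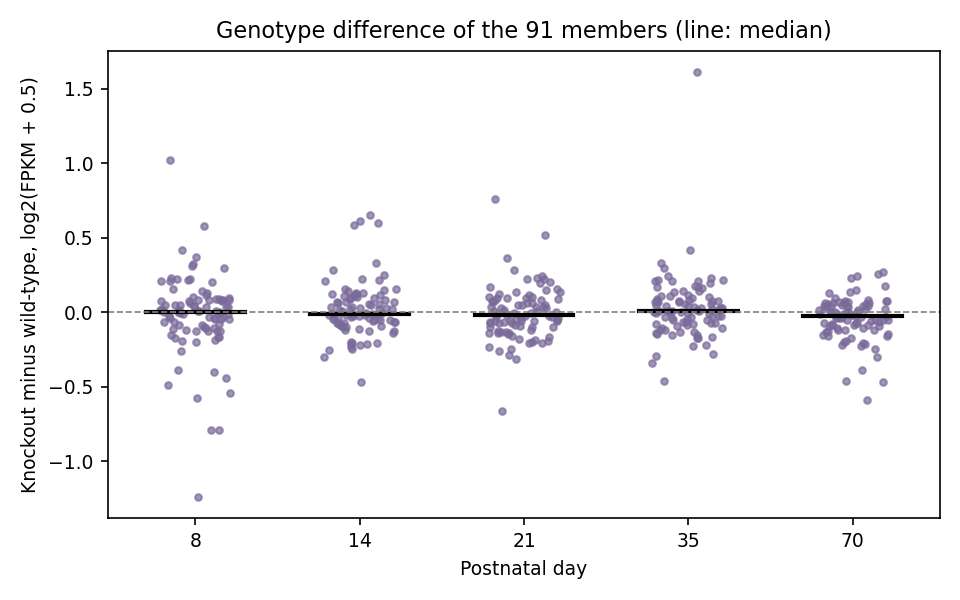
Fitted knockout minus wild-type difference in log2(FPKM + 0.5) for each of the 91 members at each postnatal day, with a black line at the median and a dashed line at 0. The medians lie between -0.022 and 0.011, and the points farthest from 0 are single members at days 8 and 35.

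The widest single differences, chosen here after their values were seen, were not called. ENSRNOG00000035138 was higher in knockout rats at day 35 by 1.61 ± 0.70 log2 units (SE; limma adjusted p = 0.999), and its values were 62.7, 37.0, 31.0, 1019 and 141 FPKM in knockout and 32.4, 52.2, 38.5, 14.0 and 40.3 FPKM in wild-type libraries. The value of 1019 was in knockout library 9-3, which has the highest total FPKM of the 50 libraries. The gene also reached 784 FPKM in wild-type library 25-3 of day 8 and 525 in knockout library 22-1 of day 14, which rank 3 and 4 in total FPKM. Whether the total bears on these values was not tested. It is the member whose day 35 mean lay above its day 21 mean on the log2 scale. Its mean was 85.3 ± 28.8 FPKM at day 8 and 160 ± 208 at day 14 in knockout rats (SD, n = 5 each). In wild-type rats the means were 239 ± 309 and 78.2 ± 66.2 FPKM, so the fall of the pooled first step was not seen in the knockout means.

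ENSRNOG00000010144 had the largest difference in the other direction, at day 8, with a knockout minus wild-type value of -1.24 ± 0.61 log2 units (SE; limma adjusted p = 0.536). Knockout library 30-5 held 0.240 FPKM, while the other knockout libraries of day 8 held 6.34 to 20.7 and the wild-type libraries 10.5 to 22.2. The gene was also at 0.431 FPKM in wild-type library 21-3 of day 14 and was listed at 0 in wild-type library 16-2 of day 21 and knockout library 7-3 of day 35. All of these libraries are among the 6 of lowest correlation with their group. An exact 0 in such a table can be a failed estimate, and 2 of the 91 members had any library listed at 0.

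Knockout libraries of day 14 differed among themselves in the members' level. The mean log2(FPKM + 0.5) over the 91 members was 3.98, 3.98 and 3.94 in libraries 22-1, 22-3 and 23-3 but 3.65 and 3.50 in libraries 24-1 and 24-2. The 5 wild-type libraries of that day lay between these sets, from 3.77 to 3.82. The knockout group therefore had an SD of 0.22 at day 14, the widest of the 10 groups, against 0.021 in wild-type rats and 0.025 to 0.094 in the remaining groups.

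The difference was shared by many members. In 58 of the 91, both libraries numbered 24 lay below the other 3 (13.8% of all genes), and in 0 members both lay above (14.2% of all genes). Other falling genes shared this: of the 383 that fell by at least 1.3 log2 units from day 8 to 70 and are not members, both libraries lay below in 158 and above in 14. The split was noticed in these data, and what the number stands for is not given in the labels. Over the members the mean of the 2 libraries was lower by 0.39 log2 units, while over all genes tested it was lower by 0.016. The log2 values of libraries 24-1 and 24-2 were still above every library of day 21 in 69 of the 91 members. Days 14 and 21 were used by the rule, so this count is a description only, and the matching share of all genes was not computed. In ENSRNOG00000005797 libraries 24-1 and 24-2 held 10.2 and 8.48 FPKM, against 16.6 to 19.8 in the other 3. Relative depth was 0.970 to 1.13 in the 2 libraries and 1.00 to 1.42 in the other 3, and their correlation with the rest of the group was 0.970 to 0.971 against 0.961 to 0.973. Without them the median knockout minus wild-type difference at day 14 was 0.14 in place of -0.0085 log2 units, and 0 members passed. Of the genes chosen in wild-type rats, 77.7% then fell from day 8 to 14 in knockout rats in place of 89.4%, and 50% in place of 56.4% fell in all 3 intervals.

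**Figure D5:**
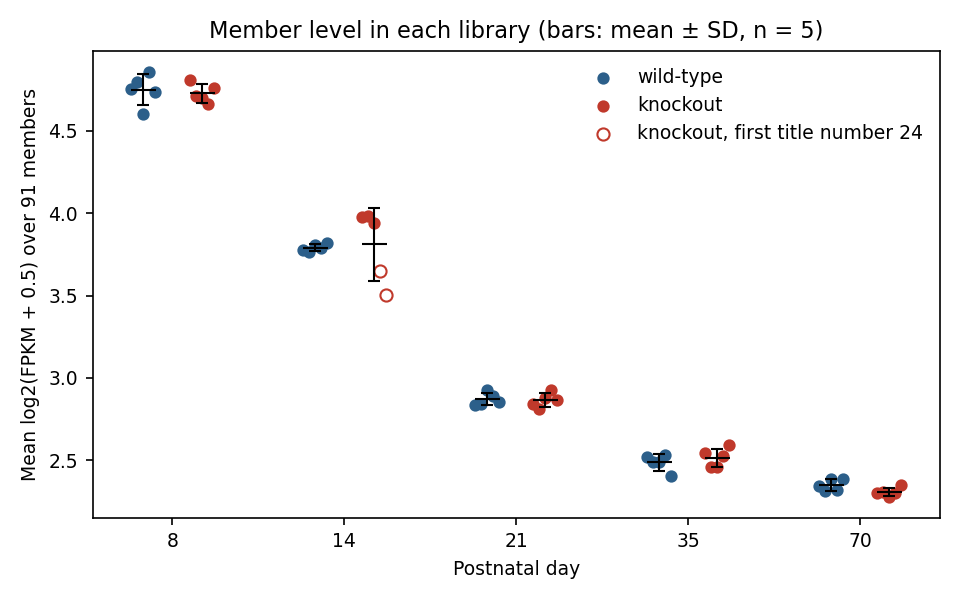
Mean log2(FPKM + 0.5) over the 91 members in each of the 50 libraries by postnatal day, with wild-type in blue and knockout in red, open circles for the libraries numbered 24, and bars for the mean ± SD of 5 libraries. Groups of the same age overlap at each day, and the knockout libraries of day 14 spread from 3.50 to 3.98.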

How the data were processed

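RNA from the medial prefrontal cortex was ribosome-depleted and sequenced as 50 bp single-end reads, per the labels' protocols. Those protocols name gsnap as the aligner to rn4. BWA 0.6.1, bedtools and Cufflinks appear in the submitters' processing notes, so the aligner behind the tables is uncertain. Sources used here do not give an annotation release. The authors deposited FPKM values in 1 table per genotype. No strand protocol is stated, so overlapping genes cannot be told apart.

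Each column was matched to a sample by its title. Libraries were divided by the median ratio over the 15296 rows above 0 in all libraries (factors 0.829 to 1.20). A model of 10 groups was fitted to log2(FPKM + 0.5) over rows of mean at least 0.5 FPKM with limma 3.58.1 in R 4.3.3 (trend, robust), and p-values were adjusted by Benjamini-Hochberg over all rows. For the genotypes fitted alone the same model was used on 25 libraries, with scaling over all 50; these fits were added after the design was set. Relative depth came from the commonest ratio of values between libraries in 4202 sparse rows, where, once depth was divided out, 97.8% of ratios in the median pair matched a quotient of integers from 1 to 8 to within 0.02 (log2). The genotype test at day 8 and the rule were checked on simulated data, with noise independent between libraries. The other tests were not checked in this way. Python 3.11.15 with matplotlib 3.10.9 drew the figures.

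The members and lists were chosen with earlier results of these data known. Without symbols the rule for naming allowed 2 identifiers, those of largest fall on the log2 scale; the other 3 were chosen after their values were seen. Lists of marker and pathway genes were not analysed here, and no sequence could be matched to an identifier. Alternatives were other scalings, pseudocounts and filters, a random effect of the first title number, single-age fits and leaving out libraries.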

Additional observations from a re-analysis of the deposited data

Results flagged for a closer look

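In 40 groups of 5 libraries (the mean over the members, the genes of largest log2 fall and the gene called at day 8, in each of the 10 groups), 3 held a library far from the other 4, where about 5% of groups would by chance alone. ENSRNOG00000005797 stood at 3.87 FPKM in knockout library 17-2 of day 21, with the other 4 between 1.40 and 2.09. ENSRNOG00000018992 stood at 7.41 FPKM in wild-type library 14-1 of day 21, with the others between 12.6 and 12.8, and at 4.86 FPKM in wild-type library 2-2 of day 70, with the others between 7.50 and 7.94.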

How the results depend on the processing

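The rule gave 128 genes with the values as deposited, 96 with quantile normalization, 72 with a pseudocount of 1, 130 with 0.1, 99 with no filter, and 89 to 102 with 1 library left out. As deposited, the median log2 change of all genes from day 8 to 70 was -0.15 in wild-type and -0.11 in knockout rats, against -0.0099 and -0.0058 after scaling. The count of members called at day 8 was 0 as deposited and 0 with day 8 fitted alone, and 0 to 1 with 1 library left out. As deposited, the median knockout minus wild-type difference over the members was -0.11, -0.064 and -0.076 log2 units on days 8, 21 and 70. The median share of the fall reached by day 21 was 76.0% with a pseudocount of 0.1. When the leading number of each title entered as a random effect, 32.0% of the genes chosen in knockout rats fell in all 3 intervals in wild-type rats. The cause of these changes was not tested. No paired analysis was possible because the groups share no replicate numbers. Unknown absolute depth leaves the counting error of low members unknown.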
